A study of Mus musculus with 6 samples.

Results

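The miRNAs that gave the most signal in the lungs of saline-treated mice were ranked on 3 one-dye arrays, all the saline arrays of a series of 6. All 1963 probes for mature mouse miRNAs were used. The mice were C57Bl6 wild-type animals of 8 to 10 weeks that received saline into the trachea in place of bleomycin, and whole lung was taken at day 21. The methods name ketamine and xylazine as the anesthetics for bleomycin injection and do not state them apart for saline. Each array held total RNA of 1 mouse, so that the values of saline mice 1, 2 and 3 are the replicates. Arrays of mice given bleomycin at 1.5 U/kg were not analysed here.

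A miRNA is a short RNA that is cut from a hairpin precursor and loaded into an Argonaute protein, where it guides the repression of messenger RNAs. Target choice rests largely on the seed, bases 2 to 8 from the 5′ end, and miRNAs with the same seed are counted as a family. Each hairpin can give a product from its 5′ side (5p) and from its 3′ side (3p), and usually one of them is kept. Some miRNAs are made in nearly every cell, such as let-7, and others mainly in 1 lineage, such as miR-126 in endothelium, miR-143 and miR-145 in smooth muscle, miR-451a in red blood cells and the miR-200 family in epithelium.

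The signal of a probe was the median brightness of its spot less the median of the 800 empty spots of the same array, averaged over both spots. Rank 1 was the brightest miRNA of an array, and the final order followed the mean rank of the 3 mice. Brightness depends on how well each probe binds its target and near relatives as well as on the amount of RNA, so the order is one of signal and not of molecule number. A miRNA was called detected when its signal exceeded 3 times the SD of the empty spots, which came to 42.9, 54.4 and 178 units in mice 1, 2 and 3. The array of mouse 3 stood apart, with noisier empty spots (SD of 59.3 against 14.3 and 18.1) and a lower summed signal (319800 units against 496392 and 637233, over the miRNAs detected on all 3 arrays).

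The sequences of high-ranked miRNAs are given 5′ to 3′ as the deposited array files list them, each matched in name and in every base to RefSeq (GRCm38.p6). The seed is in capitals. The let-7 and miR-30 lines are shown because their shared seeds held the most signal, the miR-26 and miR-29 lines because those seeds also stood among the 5 largest, and the others because they are named below for their place or lineage.
let-7f-5p: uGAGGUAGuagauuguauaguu
let-7a-5p: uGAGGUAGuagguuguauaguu
let-7d-5p: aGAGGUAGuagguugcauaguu
let-7c-5p: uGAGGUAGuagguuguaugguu
let-7b-5p: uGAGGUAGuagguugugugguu
miR-30a-5p: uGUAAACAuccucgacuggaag
miR-30c-5p: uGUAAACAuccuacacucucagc
miR-30e-5p: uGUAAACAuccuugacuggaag
miR-26a-5p: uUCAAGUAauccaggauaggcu
miR-26b-5p: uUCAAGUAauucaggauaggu
miR-29a-3p: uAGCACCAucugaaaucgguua
miR-29b-3p: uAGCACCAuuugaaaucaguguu
miR-29c-3p: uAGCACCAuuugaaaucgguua
miR-126a-3p: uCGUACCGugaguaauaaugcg
miR-451a: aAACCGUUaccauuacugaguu
miR-21a-5p: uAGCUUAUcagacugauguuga
miR-200b-3p: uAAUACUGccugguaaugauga
miR-6239: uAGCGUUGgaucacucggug

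Few miRNAs carried the signal. Of the 1963 miRNAs, 119 (6.06%) were detected on all 3 arrays, 366 (18.6%) on at least 1 and 1597 on none. By mouse, 327, 270 and 132 were detected. A further 125 were detected in mice 1 and 2 but not in mouse 3, the dimmer array, and without mouse 3 the count of miRNAs detected on every array was 244. Over the 119, the highest-ranked 10 held 43.1% ± 2.38 (SD, n = 3 mice) of the summed signal, the highest 30 held 77.4% ± 1.51 and the highest 50 held 89.3% ± 0.946.

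**Figure D1:**
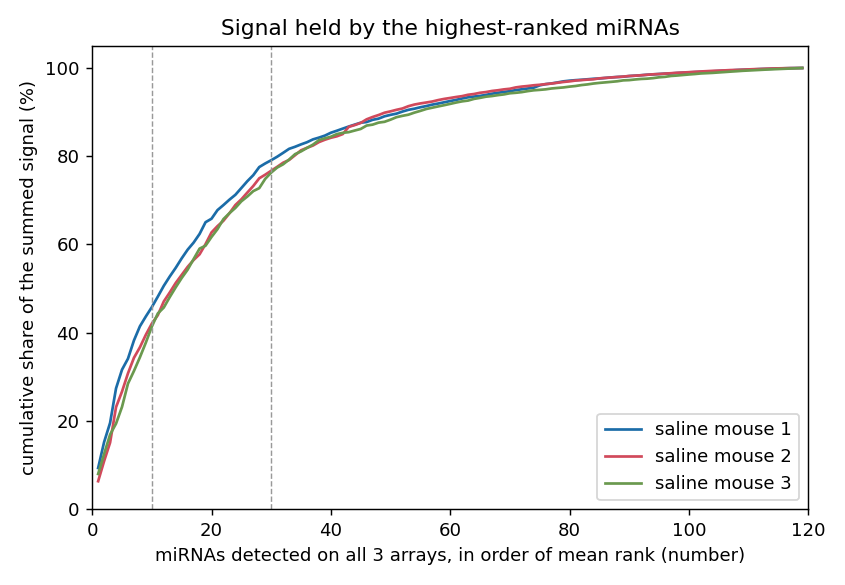
Cumulative share of the summed signal (%, y axis) against the miRNAs detected on all 3 arrays in order of mean rank (x axis), 1 line per saline mouse; dashed lines stand at 10 and 30 miRNAs. The 3 lines run close together and reach 76.3% to 79.1% at 30 miRNAs.

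miR-26a-5p had the highest mean rank. Its signal was 46401, 40453 and 25575 units in mice 1, 2 and 3, or 7.90% ± 1.50 (SD, n = 3) of the summed signal, and it ranked 1, 2 and 1. The miRNA is known for its tie to cell growth arrest and to the phosphatase genes that host it. RefSeq places 2 copies of it in the mouse genome (GRCm38.p6), at chr9:119031811-119031832 inside the span of Ctdspl and at chr10:126995543-126995564 inside the span of Ctdsp2. Its relative miR-26b-5p, at chr1:74394324-74394344 inside the span of Ctdsp1, gave 11804, 12133 and 9493 units. It had the same seed and was below miR-26a-5p in every mouse.

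let-7f-5p and let-7a-5p came next, and their ranks did not move between mice. The let-7 miRNAs are known as repressors of growth genes that accumulate as cells differentiate. let-7f-5p gave 29175, 29079.8 and 14468 units and ranked 3 in each mouse. let-7a-5p gave 21492, 26643 and 14074 units and ranked 4 in each mouse. Its share of 4.30% ± 0.112 (SD, n = 3) differed by only 1.05-fold between the highest and the lowest mouse. These miRNAs differ by 1 base (G12A, let-7a-5p first, counted from the 5′ end), and a probe for one may bind the other.

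miR-6239, at chr14:117953768-117953787 inside the span of Gpc6, had place 4 but an uneven signal. It gave 38936, 51293 and 7951 units and ranked 2, 1 and 12. Mouse 3 lay far below the other mice, and the share of 6.13% ± 3.15 (SD, n = 3) varied by 3.24-fold. miR-709 had place 19 with a like pattern, at 13218, 14779 and 2116 units, a 4.02-fold range of its share. miR-126a-3p and miR-29b-3p were also lowest in mouse 3, by 2.30-fold and 2.72-fold in share. The part of that dimmer array in these values was not tested. Sequences were compared among detected miRNAs only. Whether the miR-6239 probe binds another RNA, such as ribosomal RNA, was not tested.

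Places 5 to 10 were held by let-7d-5p, miR-30b-5p, miR-451a, miR-143-3p, miR-30a-5p and miR-30c-5p. let-7d-5p gave 21004, 22475 and 12101 units. miR-30b-5p gave 12382, 26324 and 16889.9 units and ranked 9, 5 and 2. Its spots in mouse 1 differed widely, at 20951 and 3812 units, so that its place in that mouse is uncertain. The miR-30 family is known for restraining the change of epithelial cells to a mesenchymal form. miR-451a, which is abundant in red blood cells, gave 20491, 22416 and 9142 units. miR-143-3p, a smooth muscle miRNA, gave 15929, 15206 and 9934 units.

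**Figure D2:**
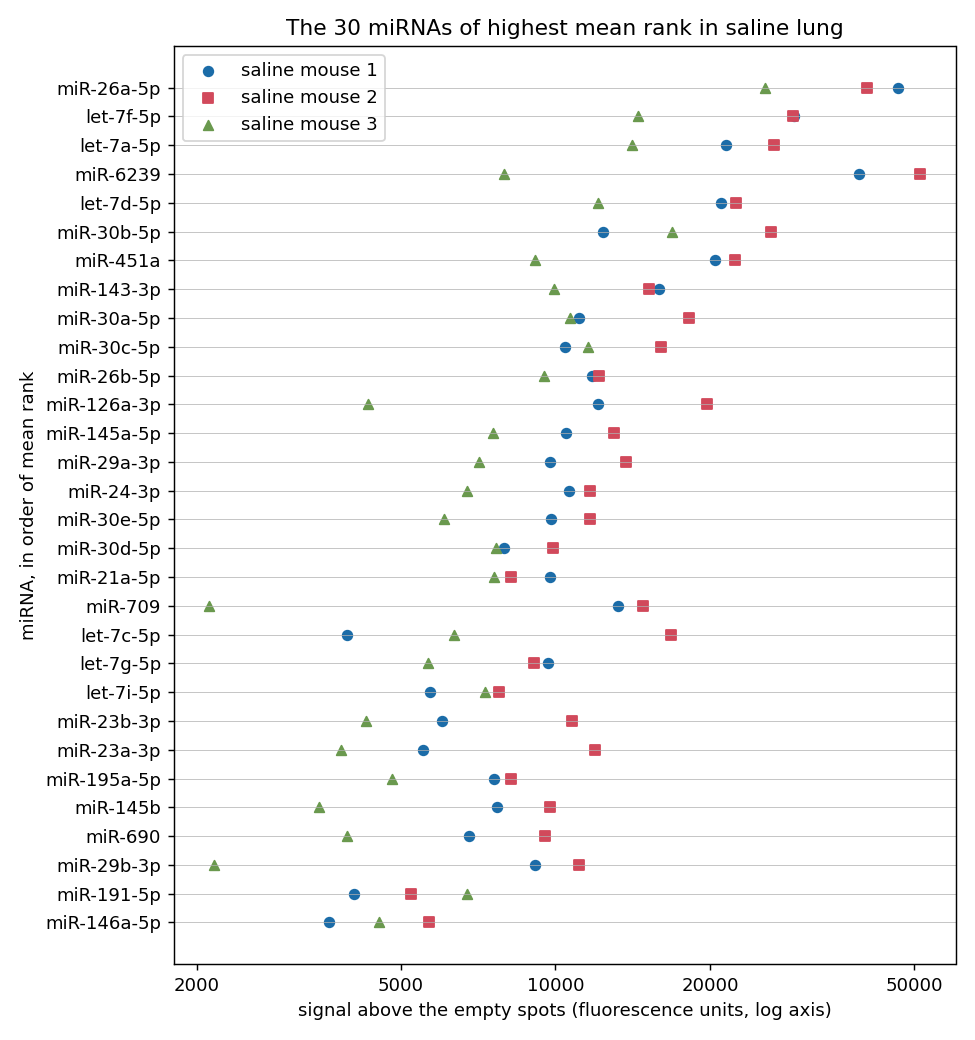
Signal above the empty spots (fluorescence units, log axis) of the 30 miRNAs of highest mean rank, 1 point per saline mouse. miR-26a-5p stands at 25575 to 46401 units, while miR-6239 and miR-709 are far lower in mouse 3 than in mice 1 and 2.

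Places 11 to 30 held miR-26b-5p, miR-126a-3p, miR-145a-5p, miR-29a-3p, miR-24-3p, miR-30e-5p, miR-30d-5p, miR-21a-5p, miR-709, let-7c-5p, let-7g-5p, let-7i-5p, miR-23b-3p, miR-23a-3p, miR-195a-5p, miR-145b, miR-690, miR-29b-3p, miR-191-5p and miR-146a-5p. miR-21a-5p, known to rise in injured and fibrotic tissue, gave 9736, 8194 and 7579 units in these saline lungs and ranked 18, 27 and 14. Its locus, chr11:86584120-86584141, lies inside the span of Vmp1. miR-146a-5p, a feedback inhibitor of NF-κB signalling, gave 3628, 5681 and 4533 units. Its value in mouse 1 came from spots of 7164 and 92.5 units, and it is therefore less certain than the others.

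Neighbours in the order could mostly not be told apart. Of the 29 neighbouring pairs among the first 30, 3 had the same order in all 3 mice. Of pairs 5 places apart, 12 of 25 did, of pairs 10 places apart, 15 of 20, and of pairs 15 places apart, 15 of 15. The first 10 of each mouse shared 6 miRNAs out of 14 that reached them in any mouse, and the first 30 shared 24 of 37. Over the 119 miRNAs, which share the same 3 libraries and are not independent replicates, the Spearman correlation of the signal was 0.951 between mice 1 and 2, 0.897 between mice 1 and 3 and 0.916 between mice 2 and 3. Over the 1597 undetected miRNAs it was 0.466, 0.140 and 0.112.

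By seed, 3 families dominated. The let-7, miR-30 and miR-26 seeds together held 41.9%, 41.5% and 48.1% of the summed signal in mice 1, 2 and 3. The 10 largest seeds held 69.9% ± 0.281 (SD, n = 3). The array carries 1588 different seeds, of which 75 had a miRNA detected on all 3 arrays.

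The let-7 seed held 19.8%, 20.3% and 20.6% in mice 1, 2 and 3. Of its 11 miRNAs, 10 were detected on all 3 arrays, and miR-1961 on none. The members ran from let-7f-5p at the top to miR-98-5p, at 1319, 1981 and 563 units. Single members varied more than their sum. let-7b-5p gave 770, 5224 and 2474 units, a 5.29-fold range of its share, and let-7c-5p gave 3922, 16826 and 6333 units. Both were lowest in mouse 1, where the spots of let-7c-5p stood at 6655 and 1189.6 units. The differences from let-7a-5p are A19G in let-7c-5p, U9G in let-7e-5p, and A17G and A19G in let-7b-5p.

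The miR-30 seed held 10.4%, 12.9% and 16.5% in mice 1, 2 and 3. Its 5 detected miRNAs, miR-30b-5p, miR-30a-5p, miR-30c-5p, miR-30e-5p and miR-30d-5p in order, were all among the first 17. miR-384-5p, the other miRNA with this seed, was detected on no array. miR-30a-5p gave 11136, 18182 and 10692 units, and miR-30e-5p, which differs from it by C13U, gave 9791, 11661 and 6065 units. miR-30e-5p had a steady share of 1.90% ± 0.0713 (SD, n = 3). Its locus lies with that of a miR-30c-5p copy at chr4:120769584-120772681, inside the span of Nfyc.

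The miR-29 family, known to repress collagen genes, held 3.92% ± 0.514 (SD, n = 3). miR-29a-3p gave 9771, 13716 and 7104 units and miR-29b-3p gave 9116, 11098 and 2157 units. miR-29c-3p, which differs from miR-29a-3p by C10U, gave 1352, 2865 and 1457 units. It was the lowest of the 3 in every mouse. The seed of miR-15, miR-16, miR-195 and miR-497a, known for control of the cell cycle, held 3.22% ± 0.408, with 6 of 11 miRNAs detected on all 3 arrays and miR-195a-5p the brightest. The miR-23 family held 2.81% ± 0.665, and miR-24-3p, made from the same hairpin clusters, held 2.03% ± 0.170. Of 42 families listed by name, 38 had a member detected on all 3 arrays. The others were miR-133, miR-320, miR-423 and miR-486.

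**Figure D3:**
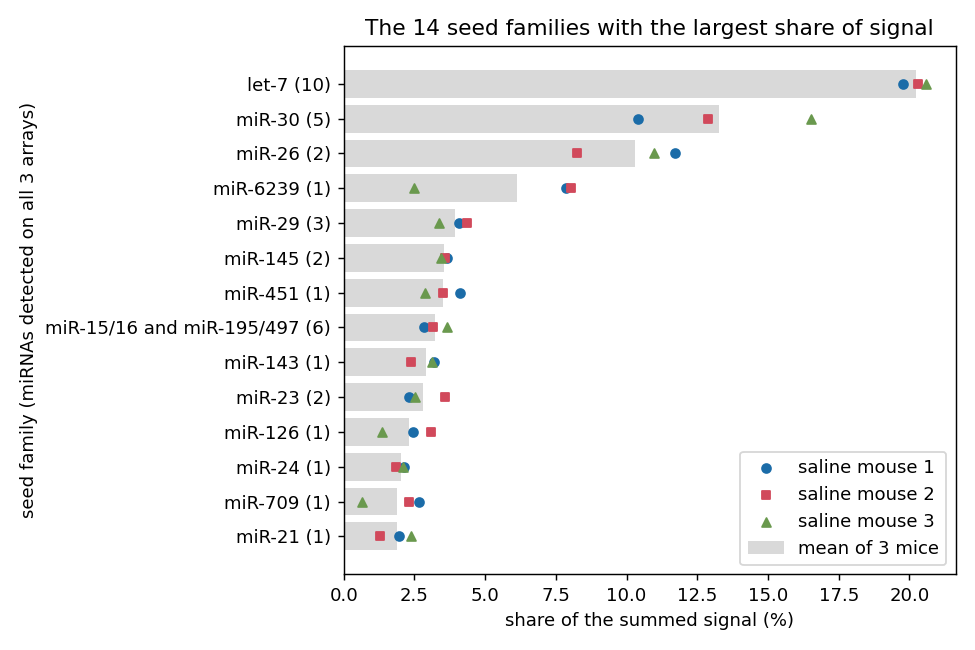
Share of the summed signal (%, x axis) of the 14 seed families with the largest mean share; bars are the mean of 3 saline mice and points the single mice, with the number of miRNAs detected on all 3 arrays in brackets. The let-7, miR-30 and miR-26 families lead, and the let-7 points lie between 19.8% and 20.6%.

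The 5p products gave most of the signal. They held 56.7%, 56.1% and 67.8% of it in mice 1, 2 and 3, while 3p products held 22.0%, 23.4% and 20.6%. The rest came from miRNAs whose names give no arm, such as miR-451a and miR-6239. Most of the 5p signal came from 3 families. The let-7, miR-30 and miR-26 seeds held 41.9%, 41.5% and 48.1% of the summed signal in mice 1, 2 and 3. Their detected members are all 5p by name except let-7k. By number the arms were closer, with 57 5p and 46 3p miRNAs among the 119, against 817 and 823 on the array.

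Within a precursor, one arm usually stood far above the other. Of 93 precursor names with both arms on the array and at least 1 arm detected on all 3 arrays, the 5p arm was brighter in every mouse in 52 and the 3p arm in 38. Without mouse 3, more precursors pass the detection limit and the 5p arm was brighter in 97. In 61 of the 93 the dimmer arm was detected on no array. miR-126a, miR-143, miR-24 and miR-29a gave mainly 3p, and let-7a, miR-26a, miR-30a and miR-145a mainly 5p. Both arms were detected on all 3 arrays in 9 precursors. miR-145a-3p gave 395, 655 and 389 units beside 10499, 12994 and 7571 units of miR-145a-5p. miR-199a gave 4504, 3964 and 3435 units of 3p and 932, 1291 and 529 units of 5p, although the 3p probe also stands for a second miRNA name with the same sequence. The spots of miR-145a-3p in mouse 1 stood at 116 and 674 units. Those of miR-199a-5p in mouse 3 stood at 318 and 739 units, so both values are less certain. miR-142a had no fixed order, with 1351, 1584 and 460 units of 5p and 1212, 1971 and 351 units of 3p. miR-34b and miR-92b also changed order between mice.

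**Figure D4:**
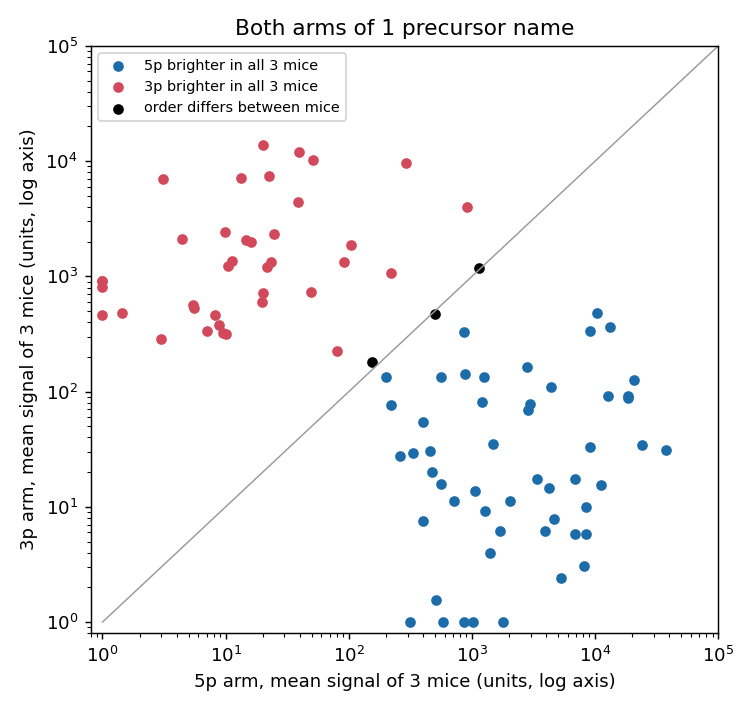
Mean signal of the 5p arm (x axis) and of the 3p arm (y axis) of 93 precursor names (fluorescence units, both axes log, means under 1 drawn at 1), each the mean of 3 saline mice. Points below the diagonal line are the 52 precursors whose 5p arm was brighter in every mouse, points above it the 38 with a brighter 3p arm, and the 3 black points changed order.

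The detected miRNAs began with U more often than the array as a whole. Of the 119, 68 (57.1%) began with U, against 41.2% of all 1963 miRNAs and 40.6% of the undetected. Those beginning with U held 73.5% ± 0.601 (SD, n = 3) of the signal. U at this position is known to fit the binding pocket of Argonaute. The median G+C content was 43.5% for the 119 and 52.4% for the undetected. Among the 119, G+C content had little relation to the share of signal (Spearman -0.04 over 119 miRNAs).

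Low-numbered miRNAs, which were named earliest and include most of the conserved ones, filled the list. Of 293 miRNAs numbered under 200, 86 (29.4%) were detected on all 3 arrays, against 9 of 991 (0.908%) numbered 3000 and above. Those 9 held 8.11% ± 3.43 (SD, n = 3) of the signal, most of it from miR-6239. miR-3962, the next by mean rank, gave 2482, 3339 and 658 units and shares a run of 17 bases with let-7g-5p, a miRNA of higher mean rank. Such a run of at least 14 bases with a miRNA of higher mean rank was found for 19 of the 119 and for 6 of the first 30, namely let-7d-5p, miR-30c-5p, let-7c-5p, let-7i-5p, miR-23a-3p and miR-145b. A higher mean rank is not a higher signal in each mouse, and miR-23a-3p exceeded its relative miR-23b-3p in mouse 2, at 11939 against 10780.3 units. The measure needs an unbroken run and misses relatives with a changed base near the middle. Examples are let-7a-5p and let-7f-5p, and miR-30a-5p and miR-30e-5p, which differ by 1 base in each pair. How much of the signal of any of these miRNAs belongs to a relative was not tested. miR-5126, whose sequence is 100% G+C, gave 1114, 678 and 81.7 units and did not pass the detection limit in mouse 3.

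Many of the miRNAs lie together in the genome. RefSeq held 102 of the 119 by name and sequence, and 51 of these lie within 10 kb of another on the same strand, in 24 clusters. The cluster of let-7a-5p, let-7f-5p and let-7d-5p at chr13:48536078-48538260 holds the miRNAs at places 2, 3 and 5. Another copy of let-7f-5p lies with miR-98-5p at chrX:151912353-151913250, and the array does not tell the copies apart. Signals within a cluster were often unequal. miR-191-5p was 9.71-, 13.0- and 11.4-fold brighter than its neighbour miR-425-5p in mice 1, 2 and 3, and miR-195a-5p was 6.48-, 7.93- and 5.61-fold brighter than miR-497a-5p. These ratios compare different probes.

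Among the lineage lists, those of smooth muscle and red blood cells had the largest and the next largest summed signal in every mouse, while the order of the endothelial, white blood cell and epithelial lists changed between mice. A list's sum takes in all its members with a signal above 0, detected or not, and is given as a percent of the summed signal of the 119, a total that holds only those members detected on all 3 arrays. Member counts are to be read against the 6.06% of all miRNAs detected on all 3 arrays. In whole lung, fewer cells of a type and less RNA per cell cannot be told apart. The smooth muscle list came to 5.18% ± 0.570 (SD, n = 3) of that total, with 3 of 4 miRNAs detected on all 3 arrays, led by miR-143-3p and miR-145a-5p. The red blood cell list came to 3.65% ± 0.690, nearly all of it miR-451a. Its other measured members, miR-144-3p, miR-144-5p and miR-486a-5p, were detected in mice 1 and 2 but not in mouse 3.

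The endothelial list came to 2.52% ± 0.909 (SD, n = 3), nearly all of it miR-126a-3p. When probes with discordant spots (more than 1 apart in log2 on an array where they were detected) were left out, miR-126a-3p, miR-221-3p and miR-222-3p dropped out. Only miR-126a-5p then remained, not detected on all 3 arrays and equal to 0.00982% of the remaining total. miR-126a-3p, which sits inside the span of the endothelial gene Egfl7 at chr2:26591402-26591423, gave 12118, 19768 and 4305 units. Its spots in mouse 1 stood at 19618 and 4617 units, so the value of that mouse is uncertain. miR-221-3p gave 577, 1166 and 446 units and miR-222-3p gave 296, 466 and 210.4 units. miR-126a-5p passed the limit in mouse 1 alone.

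The white blood cell list came to 2.03% ± 0.432 (SD, n = 3), with 5 of 6 miRNAs detected on all 3 arrays. miR-146a-5p led it, and without probes of discordant spots, this one included, the list came to 1.08%. miR-150-5p, abundant in mature lymphocytes, gave 1358, 2221 and 1794 units, and miR-223-3p, a neutrophil miRNA, gave 439, 669.5 and 682 units. miR-155-5p, which is induced in activated immune cells, gave 203, 161 and 168 units and was under the limit in mouse 3.

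Epithelial miRNAs came to 1.58% ± 0.300 (SD, n = 3), or 1.19% without probes of discordant spots, and the 5 members of the miR-200 family were all detected on all 3 arrays. This family keeps epithelial cells from turning mesenchymal by repressing Zeb1 and Zeb2. miR-200a-3p gave 3225, 2821 and 1176 units, miR-200b-3p 2247, 2121 and 1901 units, and miR-200c-3p 1365, 1366 and 1379 units. The spots of miR-200a-3p in mouse 3 stood at 186 and 2166 units, so that value is uncertain. miR-205-5p and miR-375-3p passed the limit in mouse 2 alone. The mesenchymal list of miR-199 and miR-214 came to 1.38% ± 0.260, with 4 of 5 miRNAs detected on all 3 arrays. Ciliated cell miRNAs came to 0.477% ± 0.0413. All 4 products of miR-34b and miR-34c were detected on all 3 arrays, miR-34c-5p brightest at 915, 1173 and 479 units, while miR-449a-5p passed in mice 1 and 2, and miR-449b and miR-449c-5p on none. miR-34b-3p in mouse 1 rests on spots of 11.0 and 506 units, the lower of them under the limit.

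**Figure D5:**
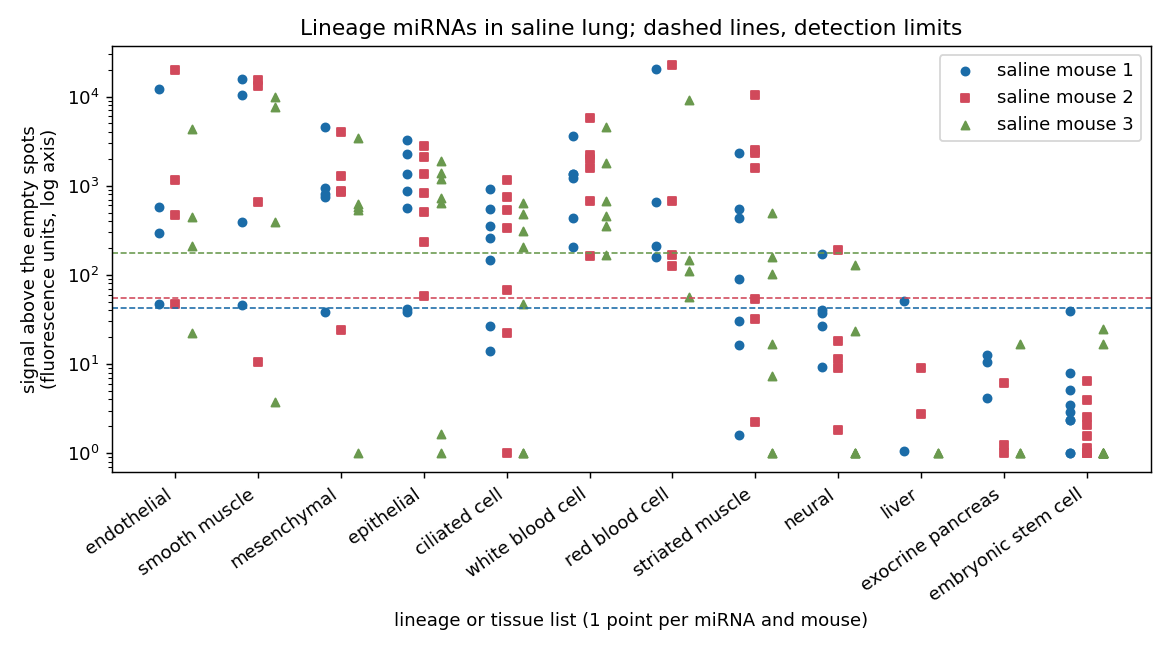
Signal above the empty spots (fluorescence units, log axis, values under 1 drawn at 1) of each miRNA in the 12 lineage and tissue lists, 1 point per miRNA and saline mouse; dashed lines are the detection limits of 42.9, 54.4 and 178 units in mice 1, 2 and 3. The exocrine pancreas and embryonic stem cell lists lie wholly under the limits, and 4 of the striated muscle miRNAs, miR-1a-3p, miR-133a-3p, miR-133b-3p and miR-206-3p, are far higher in mouse 2 than in the others.

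A set of 4 striated muscle miRNAs set mouse 2 apart. miR-1a-3p, made in heart and skeletal muscle, gave 2329, 10416 and 491 units in mice 1, 2 and 3, the widest range of share among the 119 (10.6-fold). miR-133a-3p gave 544, 2519 and 157 units and miR-133b-3p 432, 2314 and 102 units. miR-206-3p, which is restricted to skeletal muscle, was detected in mouse 2 alone, at 16.4, 1599 and -7.44 units. The heart miRNAs miR-208b-3p and miR-499-5p were detected on no array, and miR-208a-3p passed in mouse 1 alone, at 90.3 units. The list of 7 summed to 3443, 16936 and 774 units, which equals 1.20% ± 1.28 (SD, n = 3) of the total over the 119, or 0.468% without mouse 2. Of the 7, miR-1a-3p alone is part of that total, at 0.753% ± 0.780. miR-205-5p and miR-203-3p, both abundant in stratified epithelium, were also highest in mouse 2, at 38.5, 235 and 1.62 units and at 393, 977 and 168 units. They were picked after their values were seen, and the epithelial list as a whole was lowest against the total in mouse 2, at 1.68%, 1.25% and 1.82%. Whether other tissue was taken with that lung was not tested. miR-133b-5p, at 2349, 3599.8 and 59.8 units, had the same order of mice as its 3p partner. Mouse 2 stood less far above mouse 1 for this 5p probe than for the 3p probe, at 432 and 2314 units in mice 1 and 2.

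Lists for tissues other than lung were short, and their counts are to be read against the 18.6% of all miRNAs detected on at least 1 array. Of 5 neural miRNAs, miR-128-3p alone was detected, in mice 1 and 2, at 172, 188 and 129 units. Of the liver miRNAs, miR-122-5p passed in mouse 1 at 51.3 units and not in the others. None of 3 exocrine pancreas miRNAs and none of 9 embryonic stem cell miRNAs passed the limit in any mouse. A miRNA under the limit was not detectable at this signal over background, which does not show that it is absent.

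Most of the 119 kept their share between mice. The range was under 2-fold for 82 of them and over 4-fold for 6. miR-140-3p, a miRNA of cartilage and mesenchyme, was the steadiest at 1391, 1702 and 880.0 units, a 1.05-fold range. After miR-1a-3p, the widest ranges were those of miR-16-2-3p, let-7b-5p, let-7a-1-3p and miR-466i-5p. miR-16-2-3p and let-7a-1-3p were just above the limit in mouse 3, the former at 79.5, 58.6 and 189.5 units. Near the limit of detection on all 3 arrays, miR-582-5p was just inside at 219, 201 and 180.1 units, and miR-374c-5p just outside at 557, 739.8 and 148 units, since mouse 3 missed it.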

How the data were processed

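Total RNA of mouse lung was extracted with the miRNeasy kit, tailed, tagged and stained with Cy3 by an array service, and hybridized to 1 array per mouse. The deposited array files hold, for each spot, its median intensity with the background still in it, and the authors also deposited a table of their own processed values on a linear scale, treated here as a score and used as an alternative only. The 3 other sample columns of that table, those of the bleomycin mice, were not used. Scanner and normalization were not given in the sources used here. Mice were grouped by the sample labels. Of 5022 spots per array, 3926 held miRNA probes and 800 were empty. The empty median (124, 78.0 and 155 units in mice 1, 2 and 3) was subtracted, both spots were averaged, and miRNAs were ranked within each array and by mean rank. Shares are of the summed signal of miRNAs detected on all 3 arrays. Lineage lists were summed over all members above 0, detected or not, and divided by the same total. No test was made, since there is 1 group, and 3 mice limit the precision.

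The named miRNAs are the 30 of highest mean rank, the lineage lists, the brightest of each named family, 5 arm pairs with the brightest dimmer arm, 5 just inside and 5 just outside detection on all 3 arrays, the 5 most variable and the 10 highest numbered 1000 or more. Some others are named where a count, a family or a cluster turned on them, chosen after their values were seen. Members and lists were chosen with earlier results of these data known. Loci and matched sequences are those of RefSeq, GRCm38.p6. Python 3.11.15 with pandas 2.3.3 and numpy 2.4.6 was used, and R 4.3.3 with limma 3.58.1 for normexp. Steps were tested on simulated data. The 16 alternatives covered background, spots, detection, scaling and leaving out each mouse.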

Additional observations from a re-analysis of the deposited data

Results flagged for a closer look

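The arrays also carry probes for 5S ribosomal RNA, which are controls and no part of the miRNA order. They gave mean signals over the 3 mice of 10529 units for mmu-5S-b1, 10781.5 for mmu-5S-b2, 4068 for mmu-5S-b3, 14782 for mmu-5S-b4 and 17585 for mmu-5S-b5. They were singled out because all lay far above the empty spots, in data the order does not use. They were lowest in mouse 3 in each case, as was the summed signal of the 119 miRNAs detected on all 3 arrays.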

How the results depend on the processing

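miR-26a-5p was first under all 16 alternatives, and the first 10 shared 9 to 10 miRNAs with the order reported. Alternatives that changed only the detection limit or the total kept this order by construction. Leaving out probes with discordant spots could only take miRNAs out of it. Of 192 shares recomputed, 173 moved by less than the SD between mice, and of 48 counts, 45 stayed within 1.5 times the count reported. Of 1946 ranks of named miRNAs, 40 moved by more than 1 SD. Leaving out 1 mouse of 3 cannot move a mean rank by that much. Alternatives that changed only the order could not change the shares of let-7, 5p products or lineage lists. These fixed cases are included in the tallies above, which therefore overstate how far the results were tried. Detection on all 3 arrays rose to 186 miRNAs with 3 times the robust SD of the empty spots, a lower limit by construction. Leaving out 1 mouse gave 119 to 244 detected miRNAs, 52 to 97 precursors with a brighter 5p arm (both highest without mouse 3), 0.431% to 0.490% for ciliated cell miRNAs and 19.1% to 20.5% for let-7. Relative to the total, ciliated cell miRNAs came to 0.651% without background subtraction and 0.581% with normexp. Neural miRNAs, none of them detected on all 3 arrays and so not part of that total, equalled 0.0470% as processed, 0.175% without background subtraction and 0.121% with normexp. Probes with spots more than 1 apart in log2 on an array where they were detected numbered 128, 30 of them among the 119. Without them the shares were 0.427% for ciliated cell, 0.00982% for endothelial, 1.19% for epithelial, 4.49% for red blood cell, 6.25% for smooth muscle and 1.08% for white blood cell miRNAs, 51.1% for the first 10 and 19.3% for let-7, since members such as miR-126a-3p then drop out. As a share of all miRNAs, the first 10 held 39.6% and let-7 18.6%. let-7 held 19.6% with the robust SD, 19.8% from the higher spot and 20.7% from the lower spot. The cause of the other shifts was not tested. Striated muscle miRNAs fell to 0.468% without mouse 2. No paired analysis was possible because no comparison between groups was made. Signal over the empty spots limits what can be seen in mouse 3, where the limit was highest.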
